A study of Mus musculus with 9 samples.

Results

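The enzymes and receptors of the sphingosine-1-phosphate (S1P) pathway were followed in cultured mouse microglia that had or had not been fed apoptotic cells. The genes were the kinases Sphk1 and Sphk2, the lyase Sgpl1, the phosphatase Sgpp1 and the receptors S1pr1, S1pr2 and S1pr3. The members were all probes that were not array controls and whose gene name on the array was one of these 7, of 34,650 gene names in all. Of the 7 genes, 6 had 1 probe and Sphk1 had 2, so 8 probes were read. All 8 probes were well above background on all 9 arrays, and all 7 genes passed the filter on dim probes.

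The microglia came from pooled brains, without olfactory bulb and cerebellum, of P0 to P1 pups of the fms-EGFP (MacGreen) line, in which microglia carry a green fluorescent reporter. They were grown for about 14 d with 5 ng/ml GM-CSF, a growth factor that makes microglia divide, and were shaken off the flask. RNA was measured on one-color Agilent arrays in 3 groups of 3 arrays. Control microglia received no apoptotic cells. Ph3h and Ph24h microglia were fed for 3 h and 24 h with SH-SY5Y cells, a human neuroblastoma line, labeled with 5 μM of the membrane dye CM-DiI and killed with 3 μM staurosporine for 4 h, at about 1 dead cell per microglial cell. The control was taken at 0 h, and no unfed culture was measured at 3 h or 24 h, so feeding and time in culture cannot be told apart. The study describes 3 independent experiments. The reporter and the GM-CSF were common to all 3 groups.

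S1P is a signaling lipid made when a sphingosine kinase adds a phosphate to sphingosine, which ceramidases release from ceramide. Phosphatases return S1P to sphingosine and the lyase cleaves it irreversibly, whereas exported S1P acts on a family of receptors coupled to G proteins. Apoptotic cells are known to release S1P, which attracts phagocytes, and microglia carry several of its receptors.

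The first 30 of the 60 bases of 4 probes are shown, to identify the stretch of mRNA behind the largest differences: both probes of Sphk1, which read different stretches of the same gene, and those of Sgpp1 and S1pr2. No letter is in capitals, since no motif was sought in them.
Sphk1, probe at base 1681 of its transcript: ttgcatatagaagacactccccattgctct
Sphk1, probe at base 1481 of its transcript: aagctgtgcagggccaagtgcacccaaact
Sgpp1, probe at base 3157: gtcccccactttgggtctgttatgctatta
S1pr2, probe at base 2422: tcctgtggagaaatagaaaaatccaatacg
In the mm9 build the array files place the Sphk1 probes on the plus strand at chr11:116397908-116397967 and chr11:116397591-116397650. The Sgpp1 probe lies on the minus strand at chr12:76815342-76815401 and the S1pr2 probe on the minus strand at chr9:20770729-20770788. All 8 probes were designed on RefSeq mRNAs that the reference table gives the same symbol, so they lie in exons, and whether in coding or untranslated sequence was not analysed here.

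Levels are log2 fluorescence intensities relative to the 75th percentile of the same array, so a level of 1 is 2-fold above that percentile, and differences are on the log2 scale. A probe's brightness also depends on its sequence, and levels were therefore compared between groups within a gene, not between genes. The 75th percentile itself had an intensity of 356 to 473 in control, 185 to 211 after 3 h and 156 to 161 after 24 h. The 10 microglia markers on the list were all well above background on the control and Ph3h arrays, and 9 of 10 on the Ph24h arrays, where P2ry12 was not. Aif1, Csf1r, Cx3cr1, Itgam and Tmem119 were well above background on all 9 arrays, and the largest difference among them was that of Cx3cr1 at 24 h (-4.56 from control, adjusted p = 1.07e-06). Of 12 neuronal and SH-SY5Y markers, 4 to 5 were well above background on the control arrays and 9 to 10 on the fed arrays. Their summed level, relative to the 75th percentile, was 3.97 to 4.77 without feeding, 1479 to 1611 after 3 h and 2245 to 2588 after 24 h. Dbh and Phox2a were below background in all groups. The summed level of oligodendrocyte lineage markers was highest in Ph3h (417 to 475), lower in control (262 to 323) and lowest in Ph24h (208 to 242), without overlap. That of endothelial markers was lower in Ph3h (13.7 to 13.9) than in control (19.2 to 21.3) and Ph24h (19.4 to 21.5). Astrocyte markers summed to 15.0 to 19.3 and markers of fibroblasts and pericytes to 0.889 to 1.79 over the 9 arrays, with overlapping groups. The part of these cell types in the results was not tested. RNA of the fed human cells that also binds the probes of the 7 genes would move with feeding. The paper reported low similarity of most array probes to human transcripts. It also reported degraded RNA in SH-SY5Y cells after 24 h of staurosporine, and no active transcription in apoptotic ones. For the probes of the 7 genes, the part of such RNA in the results was not tested.

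Of the 7 genes, 2 were higher and 3 lower in Ph3h than in control at an adjusted p below 0.05 (limma, Benjamini-Hochberg over 24,101 genes), and their median difference was -0.14. Over all genes tested, 27.9% were higher and 25.9% lower, with a median of 0.07. In Ph24h, 1 of the 7 was higher and 5 lower than control, with a median of -0.39, beside 29.9% higher and 33.2% lower and a median of 0.01 over all genes. From 3 h to 24 h, 0 of the 7 rose and 4 fell, with a median of -0.22, beside 20.4% higher and 24.0% lower and a median of 0.04 over all genes. All 7 differences from 3 h to 24 h were below 0, so 0 were higher at an unadjusted p below 0.05 as well. Both fed groups were compared with the same control arrays. In bulk RNA, fewer cells of a type and less RNA per cell cannot be told apart. Scaling to the median of each array in place of its 75th percentile moved the median of all genes to -0.18 at 3 h and -0.50 at 24 h. The shares higher and lower were then 17.9% and 35.3% at 3 h, and 15.9% and 50.9% at 24 h.

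**Figure D1:**
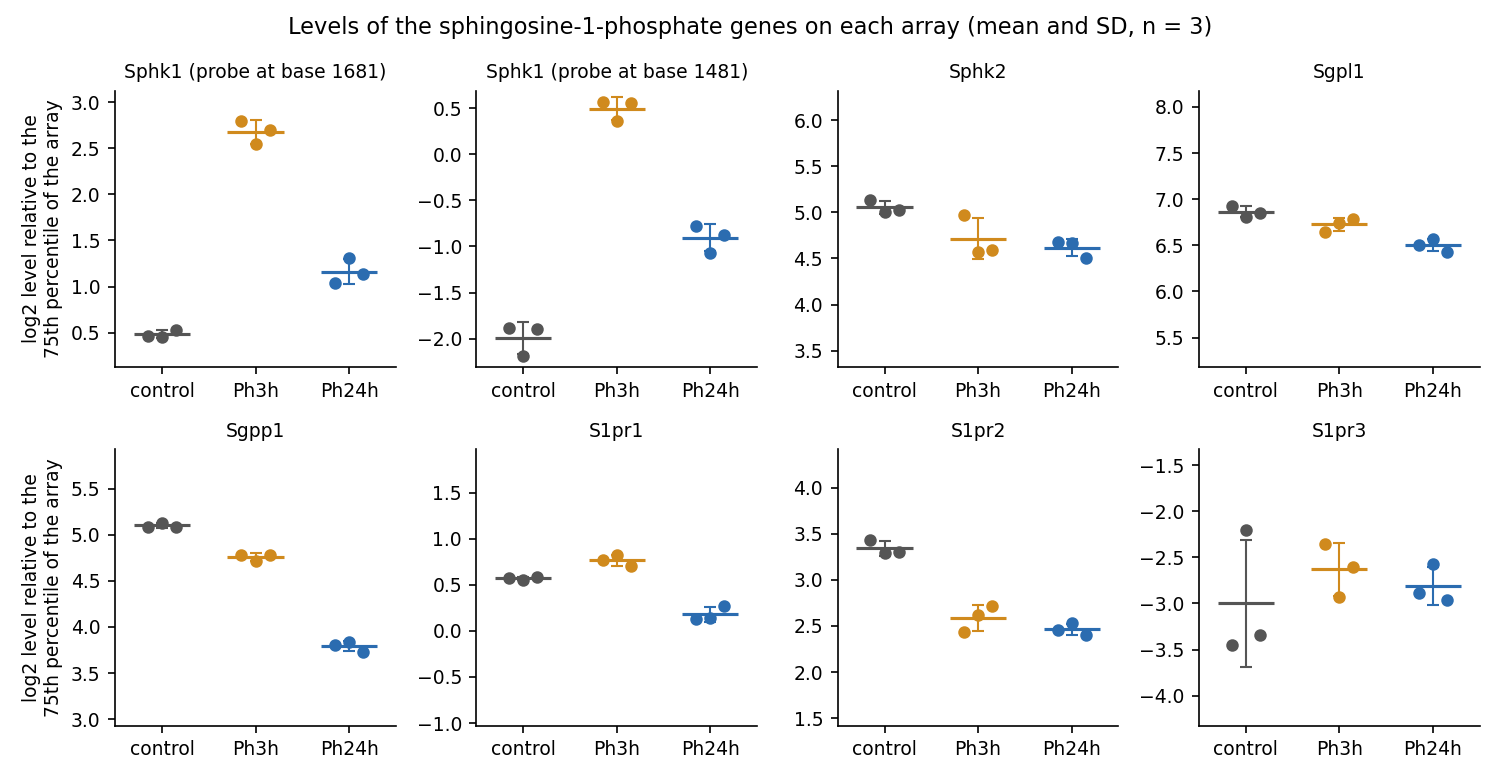
Log2 level of each of the 8 probes relative to the 75th percentile of its array, for the 3 control, 3 Ph3h and 3 Ph24h arrays. Points are arrays, horizontal lines group means and bars SD, and every panel spans the same range. Both Sphk1 probes are highest on all 3 Ph3h arrays, Sgpp1 is lowest on all 3 Ph24h arrays, and the S1pr3 groups overlap.

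Sphk1, the mostly cytosolic kinase that can be recruited to the plasma membrane, rose 4.57-fold at 3 h and was still 1.60-fold above control at 24 h. Its level was 0.47, 0.46 and 0.53 in control, 2.79, 2.54 and 2.70 in Ph3h and 1.04, 1.31 and 1.14 in Ph24h. The 3 groups did not overlap, with Ph3h highest and control lowest. The difference from control was 2.19 ± 0.09 (SE, adjusted p = 1.93e-06) at 3 h and 0.68 ± 0.09 (adjusted p = 0.00048) at 24 h. From 3 h to 24 h the level fell by 1.52 ± 0.09 (adjusted p = 1.41e-05). On slide 1, which held replicates 1 and 2 of each group, the differences from control were 2.21 and 0.71, and on slide 2, with replicate 3 and no test, they were 2.17 and 0.61. With arrays scaled to their medians the 24 h difference was 0.17 (adjusted p = 0.17) and was not called. In both scalings it stood 0.67 above the median of all genes. That follows by arithmetic, since the scalings differ by a constant per array, and adds no support to the call.

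The other Sphk1 probe, which was dimmer, gave the same order of groups. Its level was -1.88, -2.19 and -1.89 in control, 0.57, 0.36 and 0.56 in Ph3h and -0.78, -1.07 and -0.87 in Ph24h. These groups did not overlap either. In a fit of all probes it exceeded control 5.59-fold at 3 h (2.48 ± 0.12, adjusted p = 4.41e-06) and 2.12-fold at 24 h (1.08 ± 0.12, adjusted p = 0.000182).

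Sphk2, the kinase found largely in the nucleus and at internal membranes, fell to a lesser degree. Its level was 5.13, 5.00 and 5.03 in control, 4.97, 4.57 and 4.60 in Ph3h and 4.68, 4.66 and 4.51 in Ph24h. No fed array reached the lowest control array, and the Ph3h and Ph24h arrays overlapped. The level fell by 0.34 ± 0.12 at 3 h (adjusted p = 0.041) and by 0.44 ± 0.12 at 24 h (adjusted p = 0.0129). The call at 3 h was lost when any 1 of 7 arrays was left out, namely any control array, Ph3h replicate 2 or 3, or Ph24h replicate 1 or 2, with differences of -0.37 to -0.27. It was also lost on slide 1 alone (-0.30, adjusted p = 0.199, with -0.43 on slide 2), as was the 24 h call (-0.40, adjusted p = 0.0966, with -0.52 on slide 2). The difference between 24 h and 3 h was -0.10, with a 95% interval from -0.37 to 0.18.

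Sgpl1, the lyase of the endoplasmic reticulum that removes S1P for good, was modestly lower at 24 h. Its level was 6.93, 6.81 and 6.85 in control, 6.65, 6.74 and 6.79 in Ph3h and 6.51, 6.57 and 6.43 in Ph24h. The 3 groups did not overlap, and the nearest control and Ph3h arrays were close together. At 3 h the difference was -0.14 ± 0.07 and did not pass the test (adjusted p = 0.117), but it was -0.33 with quantile normalization (adjusted p = 0.00254) and -0.38 with median scaling (adjusted p = 0.0154). At 24 h the level fell by 0.36 ± 0.07 (adjusted p = 0.00209), with -0.33 on slide 1 and -0.42 on slide 2. From 3 h to 24 h it fell by 0.22 ± 0.07 (adjusted p = 0.027), a call that was lost with quantile normalization (-0.13, adjusted p = 0.126), on slide 1 alone (-0.16, adjusted p = 0.23) and without Ph3h replicate 2 or 3 or Ph24h replicate 1 or 3 (-0.23 to -0.19).

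Sgpp1, the phosphatase of the endoplasmic reticulum that turns S1P back into sphingosine, fell at both times and most at 24 h. Its level was 5.09, 5.13 and 5.08 in control, 4.79, 4.71 and 4.78 in Ph3h and 3.80, 3.84 and 3.73 in Ph24h. The groups were far apart relative to their spread, with SDs of 0.02 to 0.06. It was 1.27-fold lower at 3 h (-0.34 ± 0.05, adjusted p = 0.00123) and 2.48-fold lower at 24 h (-1.31 ± 0.05, adjusted p = 1.23e-06). The difference between 24 h and 3 h was -0.97 ± 0.05 (adjusted p = 8.73e-06). On slide 1 the differences from control were -0.36 and -1.29, and on slide 2 they were -0.30 and -1.35.

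S1pr1, a receptor that signals through the inhibitory G proteins and is known for guiding lymphocytes out of lymph nodes, moved little and in opposite directions at 3 h and 24 h, both past the test. Its level was 0.57, 0.56 and 0.58 in control, 0.77, 0.82 and 0.70 in Ph3h and 0.13, 0.14 and 0.27 in Ph24h. The groups did not overlap. The difference from control was 0.19 ± 0.06 at 3 h (adjusted p = 0.0287), with 0.23 on slide 1 (adjusted p = 0.0524) and 0.12 on slide 2. With median scaling it turned to -0.05 (adjusted p = 0.585), which was 0.13 above the median of all genes in that scaling. It was called no longer when any control array or Ph3h replicate 1 or 2 was left out, with values of 0.17 to 0.20. At 24 h the level fell by 0.39 ± 0.06 (adjusted p = 0.000906), with -0.43 on slide 1 and -0.32 on slide 2, and it fell by 0.59 ± 0.06 from 3 h to 24 h (adjusted p = 0.000185).

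S1pr2, a receptor that can also couple to the G proteins encoded by Gna12 and Gna13, was lower at both times. Its level was 3.44, 3.29 and 3.30 in control, 2.44, 2.62 and 2.72 in Ph3h and 2.46, 2.53 and 2.40 in Ph24h. All fed arrays lay below all control arrays, and the fed groups overlapped. It was 1.68-fold lower at 3 h (-0.75 ± 0.09, adjusted p = 0.00026) and 1.84-fold lower at 24 h (-0.88 ± 0.09, adjusted p = 8.69e-05). The differences on slide 1 were -0.83 and -0.87, and on slide 2 -0.58 and -0.90. The 24 h and 3 h groups differed by -0.13, with a 95% interval from -0.33 to 0.07, although with median scaling the difference was -0.39 (adjusted p = 0.0326).

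S1pr3, a receptor with similar coupling to S1pr2, was read by the probe with the lowest intensities of the 8, from 20.7 to 89.5. Its level was -3.45, -2.20 and -3.35 in control, -2.36, -2.93 and -2.60 in Ph3h and -2.89, -2.57 and -2.96 in Ph24h. One control array, replicate 2, was higher than all 6 fed arrays, and the groups overlapped. The differences from control were 0.37, with a 95% interval from -0.41 to 1.15, at 3 h and 0.19, with an interval from -0.59 to 0.97, at 24 h. Without control replicate 2 they were 0.77 (adjusted p = 0.0169) and 0.59 (adjusted p = 0.0372), so whether they were called depended on that array. The sign at 24 h depended on the scaling too, with -0.19 under quantile normalization and -0.32 under median scaling, neither called.

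**Figure D2:**
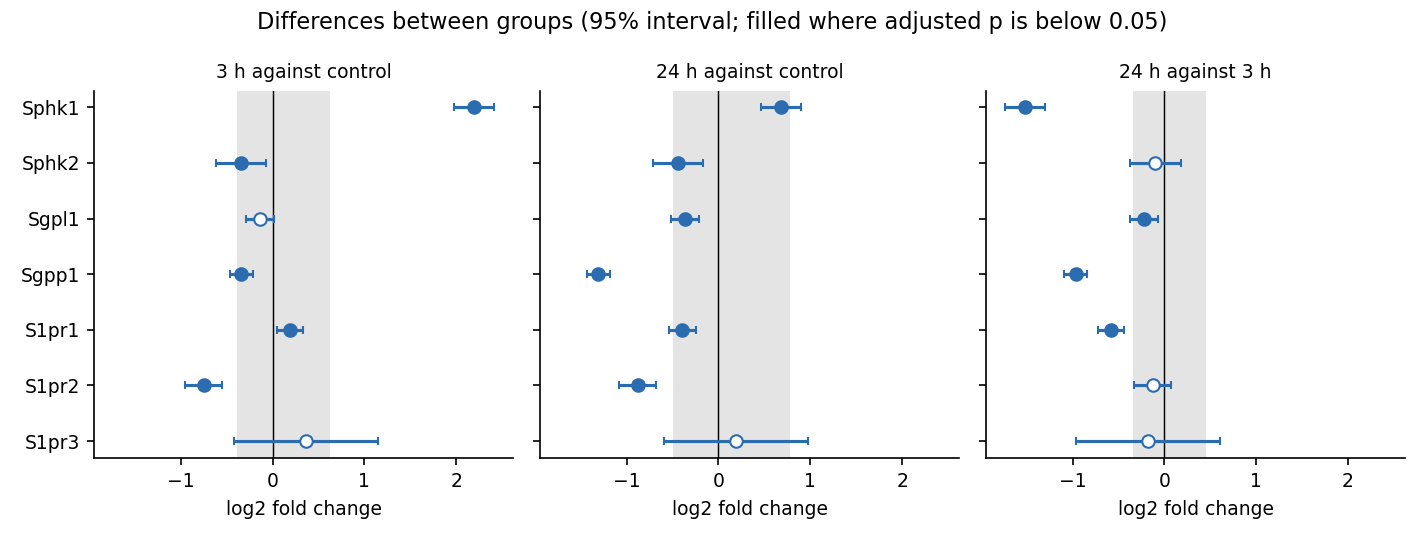
Log2 fold change of the 7 genes in each comparison, with 95% intervals from the fit. Filled points passed the test and gray bands span the lower to the upper quartile of all 24,101 genes. Sphk1 at 3 h (2.19), Sgpp1 at 24 h (-1.31) and S1pr2 at both times (-0.75 and -0.88) lie outside the bands, as do Sphk1 (-1.52), Sgpp1 (-0.97) and S1pr1 (-0.59) from 3 h to 24 h.

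Differences between 2 genes on the same array do not depend on a constant shift of the whole array, such as the 75th percentile or the median gives, whereas quantile normalization is no such shift and can change them. The question was whether the kinase and the enzymes that remove its product changed unequally. Sphk1 minus Sgpp1 was -4.62 ± 0.06 (SD, n = 3) in control, -2.08 ± 0.09 in Ph3h and -2.63 ± 0.12 in Ph24h, so the ratio of Sphk1 to Sgpp1 exceeded that in control 5.80-fold at 3 h and 3.97-fold at 24 h. The ratio of Sphk1 to Sgpl1 exceeded it 5.03-fold and 2.06-fold, and the ratio of Sphk1 to Sphk2 5.80-fold and 2.17-fold. The ratio of S1pr1 to S1pr2 exceeded that in control 1.92-fold at 3 h and 1.40-fold at 24 h. In all 8 comparisons with control the 3 fed arrays lay above the 3 control arrays, and each two-sided exact permutation test gave p = 0.1, the smallest that 3 against 3 arrays allow. These ratios were chosen after the levels of the genes had been seen.

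**Figure D3:**
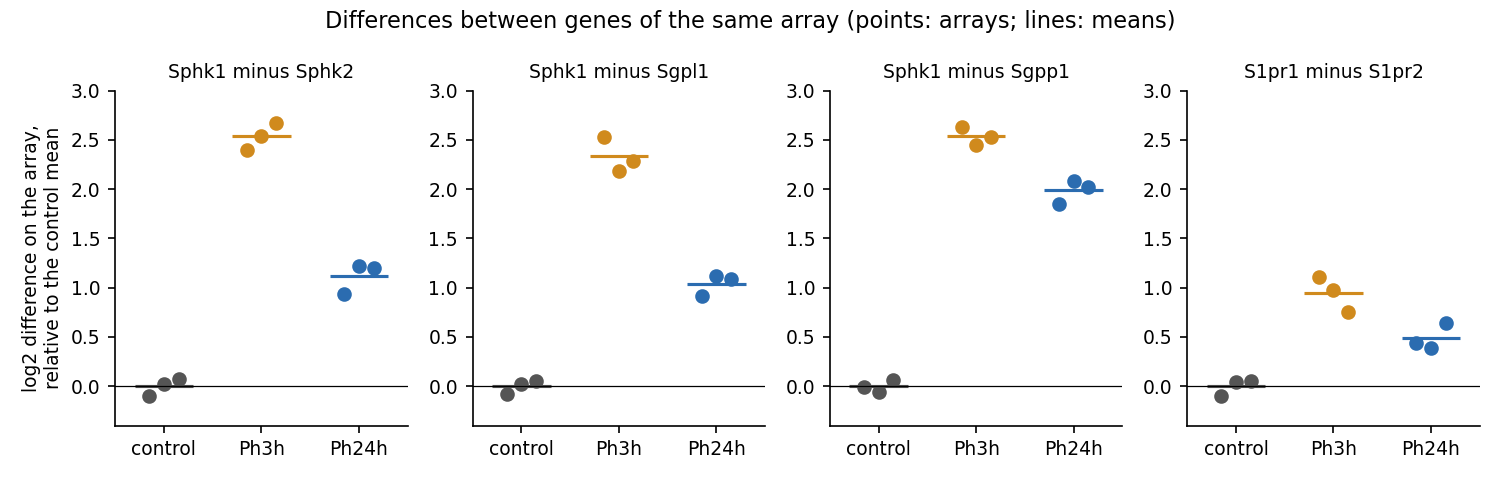
Differences between the log2 levels of 2 genes on the same array, set to 0 at the control mean, for 3 arrays per group. Points are arrays and lines means. All fed arrays lie above all control arrays in the 4 panels, with Sphk1 over Sgpp1 at 2.54 in Ph3h and 1.99 in Ph24h.

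The other genes of the pathway were described from a list of 50, of which 49 were on the array and 42 passed the filter on dim probes. The receptor S1pr5 and the phosphatase Sgpp2 were below background on all arrays. At 3 h 10 of the 42 were higher and 16 lower than control, with a median of -0.13, beside 27.9% and 25.9% of all genes and their median of 0.07. At 24 h the counts were 12 and 20, with a median of -0.14, beside 29.9% and 33.2% and a median of 0.01. With median scaling they were 5 and 31 at 24 h, beside 15.9% and 50.9% of all genes. From 3 h to 24 h 11 rose and 11 fell, with a median of -0.11, beside 20.4% and 24.0% and a median of 0.04. The counts by role below are of 3 to 12 genes each, stand beside these same shares of all genes, and describe the genes without setting a role apart.

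Among the other receptors and phosphatases, S1pr4, a receptor known from immune cells, was high only on the Ph3h arrays among these groups. Its level was -3.97, -3.72 and -3.34 in control, -1.54, -1.59 and -1.59 in Ph3h and -3.63, -3.53 and -3.43 in Ph24h. It rose by 2.10 ± 0.15 at 3 h (adjusted p = 2.4e-05) and was not well above background on any Ph24h array, where it was at least 3.89-fold lower than at 3 h. The lipid phosphate phosphatases, which dephosphorylate S1P at the cell surface, moved apart. Plpp3 (Ppap2b on the array) fell by 0.33 at 3 h and rose by 1.46 at 24 h, Plpp1 (Ppap2a) rose by 0.72 and 0.25, and Plpp2 (Ppap2c) fell by 0.78 and 0.37, the latter not called on slide 1 alone (-0.33, adjusted p = 0.0507). The 24 h rise of Plpp1 turned to -0.26 with median scaling (adjusted p = 0.0442). It was not called on slide 1 alone (0.18, adjusted p = 0.117), and the other probe of Plpp1 gave 0.28 (adjusted p = 0.0902).

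Of 6 genes for export, carriage and removal of the aldehyde that the lyase makes, 2 rose and 2 fell at 3 h (27.9% and 25.9% of all genes), and 3 rose and 1 fell at 24 h (29.9% and 33.2%). Spns2, an exporter of S1P, had levels of -2.63, -2.66 and -2.59 in control, -1.45, -1.40 and -1.59 in Ph3h and -0.88, -0.74 and -0.85 in Ph24h. The 3 groups did not overlap, with differences from control of 1.15 ± 0.07 (adjusted p = 1.12e-05) and 1.81 ± 0.07 (adjusted p = 9.41e-07). Apom, which carries S1P in lipoproteins, was not well above background on any control array. It was at least 2.60-fold higher after 3 h and at least 4.11-fold after 24 h. These bounds set the mean of the fed arrays against the lowest level well above background on each control array, or the level of the probe itself where that was higher. The bounds were not tested. The fit, which used the control values below background, gave 2.18 (adjusted p = 0.000875) and 2.84 (adjusted p = 0.000174). Abcc1, a transporter able to export S1P, fell by 0.34 at 3 h and rose by 1.06 at 24 h. Mfsd2b, also listed for export and named after its values were seen, was not called. It was at 0.0023 at 3 h (adjusted p = 0.989) and -0.13 at 24 h (adjusted p = 0.356). Spns1, a lysosomal relative of Spns2, was at -0.12 at 3 h (adjusted p = 0.453), or -0.36 with median scaling (adjusted p = 0.0321), and fell by 0.42 at 24 h. The 24 h call of Spns1 was lost on slide 1 alone (-0.37, adjusted p = 0.108) and without control replicate 2 or 3 or Ph24h replicate 1 (-0.39 to -0.35).

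The 3 measured ceramidases, which supply sphingosine, did not pass the test at 3 h, and all 3 fell at 24 h, when 33.2% of all genes did. The 24 h differences were -0.87 for the neutral ceramidase Asah2, -0.70 for the alkaline ceramidase Acer3 and -0.28 for the acid ceramidase Asah1. Other probes of Asah2 and Asah1, in the fit of all probes, were lower at 3 h too (-0.47, adjusted p = 0.0204, and -0.27, adjusted p = 0.0209), so the 3 h result depended on the probe. It depended on the scaling too, since with quantile normalization Acer3 (-0.25, adjusted p = 0.028) and Asah1 (-0.27, adjusted p = 0.0209) were called at 3 h, as they were with median scaling (-0.47 and -0.44). The 24 h call of Asah1 was lost with quantile normalization (-0.20, adjusted p = 0.0504), with the authors' value table (-0.21, adjusted p = 0.0503), on slide 1 alone (-0.29, adjusted p = 0.0647) and without control replicate 1 or Ph24h replicate 3 (-0.26 to -0.22). Of 12 genes of ceramide synthesis, 2 rose and 5 fell at 3 h, and 2 rose and 6 fell at 24 h. The 2 subunits of serine palmitoyltransferase, the first enzyme of the route, moved apart: Sptlc1 fell by 0.40 and 0.57, whereas Sptlc2 was at 0.15 at 3 h (adjusted p = 0.149) and rose by 0.74 at 24 h, where median scaling gave 0.24 (adjusted p = 0.118) and its other probe 0.31 (adjusted p = 0.0973). Ormdl1 and Ormdl2, which restrain that enzyme, fell by 0.60 and 0.62 at 3 h and by 0.59 and 0.44 at 24 h, with -0.26 (adjusted p = 0.204) and -0.41 (adjusted p = 0.0545) for the other probe of Ormdl2. Ormdl3, the remaining member of that family, named after its values were seen, rose by 0.24 at 3 h (adjusted p = 0.00811) and was at 0.13 at 24 h (adjusted p = 0.0798).

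Of 10 genes of sphingomyelin and glycolipid turnover, 2 rose and 4 fell at 3 h, and 3 rose and 6 fell at 24 h. Sgms2, a sphingomyelin synthase of the plasma membrane, had the largest 24 h difference of the named genes with a measured control, at 2.73 ± 0.15 (adjusted p = 5.54e-06), after 0.73 at 3 h (adjusted p = 0.00499), which was 0.49 with quantile normalization (adjusted p = 0.0512). Ugcg, which makes glucosylceramide, rose by 0.98 at 3 h and 0.42 at 24 h, and the latter turned to -0.08 with median scaling (adjusted p = 0.529). Galc, the lysosomal galactosylceramidase, fell by 0.74 and 1.18. The ceramide kinase Cerk fell by 0.90 at 24 h, and at 3 h its probes gave 0.10 (adjusted p = 0.335) and 0.45 (adjusted p = 0.00132).

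Of 7 G proteins that the receptors use, 2 were higher and 3 lower at each time, beside shares of 27.9% and 25.9% at 3 h and 29.9% and 33.2% at 24 h over all genes. Gna13 rose by 1.03 at 3 h (adjusted p = 4.85e-05) and was at -0.14 at 24 h (adjusted p = 0.2), and its other 3 probes gave 0.13, 1.88 and 1.13 at 3 h, so its probes disagreed in size. At 24 h, in the same order, they gave -0.31 (adjusted p = 0.0222), 0.54 (adjusted p = 0.00638) and -0.17 (adjusted p = 0.0428), so there they disagreed in sign, and with median scaling the probe reported gave -0.64 (adjusted p = 0.00184). Its partner Gna12 fell by 0.33 at 3 h and 1.00 at 24 h. Gna11 fell by 0.78 and 0.81, and Gnai2, of the inhibitory type, rose by 0.63 and 0.51, the latter 0.0068 with median scaling (adjusted p = 0.954).

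**Figure D4:**
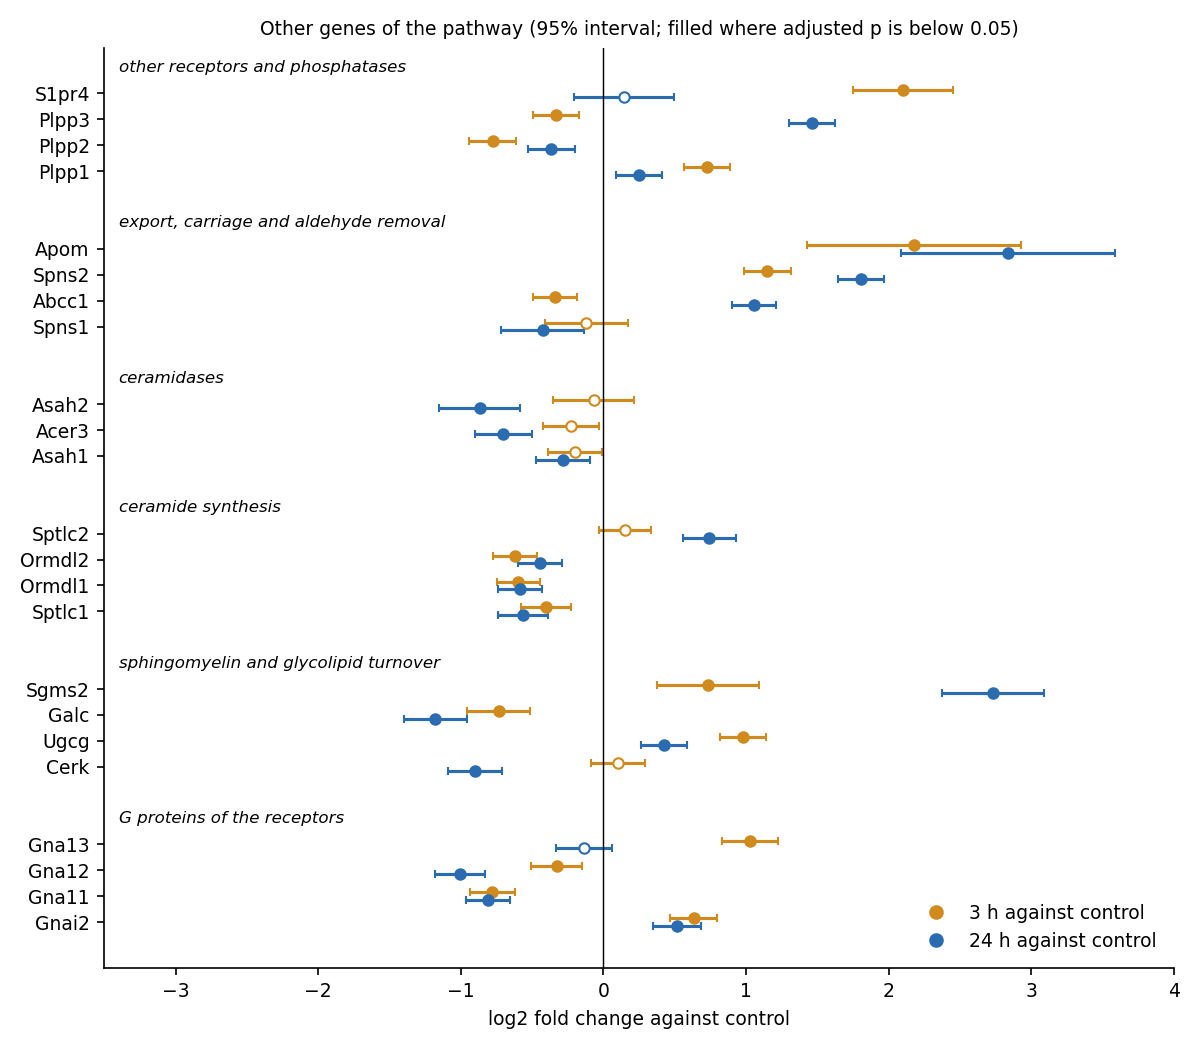
Log2 fold change against control of 23 other genes of the pathway by role, at 3 h and at 24 h, with 95% intervals. Filled points passed the test. Spns2 lies above 0 at both times (1.15 and 1.81), and Plpp3 and Abcc1 lie below 0 at 3 h and above 0 at 24 h. The points of Apom are fitted values, and its folds are lower bounds.

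Among the 7 genes, Sphk1 and Sgpp1 had group means that spanned at least 1 on the log2 scale, and the genes with the closest profiles over the 9 arrays were sought among 15,412 others. Closest to Sphk1 were Rabgef1, an activator of the endosomal Rab proteins, with a root mean square difference of 0.13 after centering, Smad7, an inhibitor of TGF-β signaling, with 0.13, and the polo-like kinase Plk3, with 0.15. They differed from control by 1.93, 2.06 and 2.44 at 3 h and by 0.57, 0.44 and 0.76 at 24 h, beside 2.19 and 0.68 for Sphk1. Closest to Sgpp1 were the cation exchanger Slc24a5, with 0.04, the valyl-tRNA synthetase Vars, with 0.05, and the retinal reductase Dhrs3, with 0.05. They differed from control by -0.29, -0.34 and -0.25 at 3 h and by -1.23, -1.27 and -1.27 at 24 h. These likenesses follow the 3 group means on shared arrays and are a description.

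**Figure D5:**
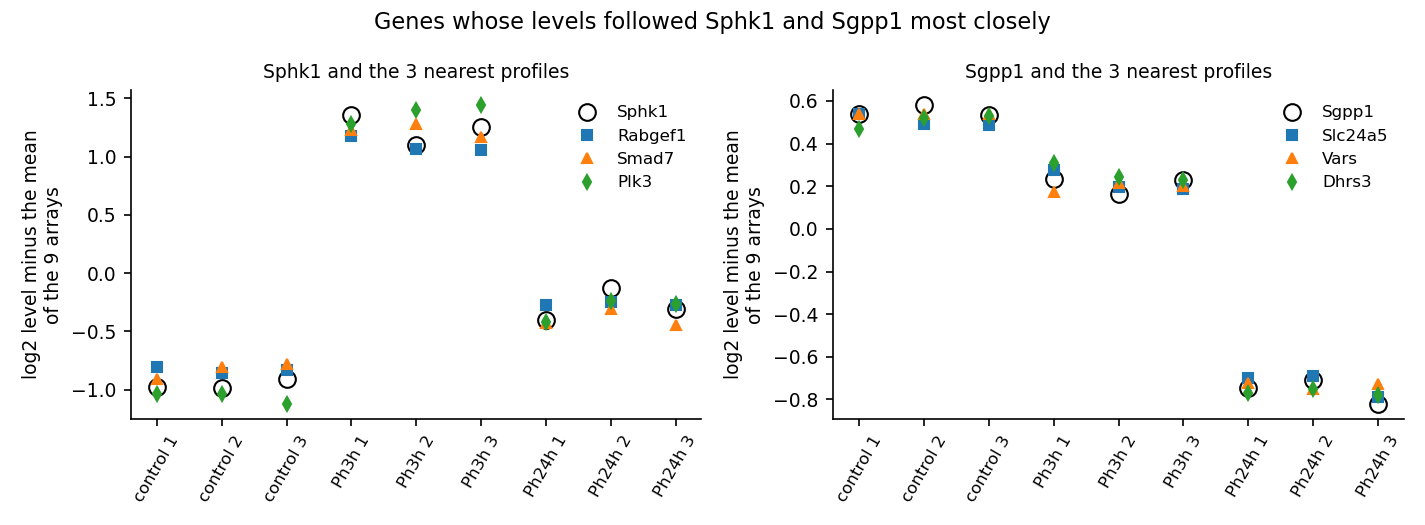
Log2 level minus the mean of the 9 arrays for Sphk1 (left) and Sgpp1 (right), as open circles, with the 3 genes whose profiles were closest, as filled symbols. Replicates within a group have no order. The genes beside Sphk1 are highest on the Ph3h arrays and those beside Sgpp1 lowest on the Ph24h arrays.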

How the data were processed

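Total RNA of 9 cultures was hybridized to 9 one-color arrays on 2 slides. The authors deposited scanner files made with Agilent Feature Extraction 10.7.3.1 (per the submitters' processing notes), whose processed signal is a fluorescence intensity, background-subtracted and not normalized between arrays. They also deposited a value table of log2 values for 36,655 probes, made with GeneSpring GX, with probes centered over the arrays. How they scaled it between arrays is not stated in the paper or the labels, and it served as an alternative.

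Intensities were taken to log2, flagged spots were left out, spots of a probe were averaged and the 75th percentile of each array was subtracted. At least 1 array had to read a probe well above background, which 34,381 probes passed, and 24,101 gene names were each represented by the probe of highest mean. Group means were fitted over all 9 arrays with limma 3.58.1 in R 4.3.3, and p values were adjusted with the Benjamini-Hochberg method. Figures used matplotlib 3.10.9. The fit was tested on simulated data. Alternatives were other scalings, background correction, filters and probe choices, the slide or replicate number as a block, each slide alone, a variance trend, 2 groups only, the regression on time of the study's methods, and each array left out. The number of arrays limits the precision.

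The members and lists were chosen with earlier results of these data known. Named pathway genes were, per role, up to 4 called genes with the largest difference from control, plus for members spanning at least 1 the 3 nearest profiles. Ormdl3 and Mfsd2b were added after their values were seen.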

Additional observations from a re-analysis of the deposited data

Results flagged for a closer look

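In 4 genes the effect at 24 h differed from that at 3 h by the fit's own test of the difference, in which the control arrays cancel. The 24 h effect minus the 3 h effect was -1.52 ± 0.09 on the log2 scale (SE, limma, adjusted p = 1.41e-05) for Sphk1, whose rise was smaller at 24 h. It was -0.97 ± 0.05 (adjusted p = 8.73e-06) for Sgpp1, whose fall was larger at 24 h. It was -0.59 ± 0.06 (adjusted p = 0.000185) for S1pr1, and -0.22 ± 0.07 (adjusted p = 0.027) for Sgpl1. In all 4 genes every Ph24h array lay below every Ph3h array. The call for Sgpl1 was lost under 11 of the 21 alternatives that had a test.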

How the results depend on the processing

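Of the differences of the 7 genes, Sphk1 at 3 h kept its direction under all 23 alternatives (1.95 to 2.48) and its call under the 22 that had a test. Sgpp1 at 3 h (-0.59 to -0.30) and Sgpl1 and S1pr2 at 24 h kept their direction under 22 alternatives and their call under the 21 with a test. So did Sgpp1 (-1.82 to -1.25) and S1pr1 (-0.90 to -0.27) at 24 h and S1pr2 at 3 h (-0.99 to -0.58), whose sizes moved on slide 2. From 3 h to 24 h, Sphk1 (-1.78 to -1.34), Sgpp1 (-1.23 to -0.81) and S1pr1 (-0.85 to -0.40) also kept direction and call. The regression on time called 6 genes, beside 6 changed at 3 h or 24 h in the fit of group means. Its fitted values are the group means themselves, so it is no independent check. The share of variance it explained was 0.71 for Sphk2 and 0.88 for Sgpl1, both below the paper's stricter limit. For the other called genes it was 0.957 to 0.996. The count of the 7 genes higher at 3 h was 1, in place of 2, with median scaling, with normexp, with the replicate block and on slide 1 alone, and 1 to 2 without 1 array. At 24 h it was 0 in limma with median scaling (0 also at an unadjusted p below 0.05), in place of 1, and 1 to 2 without 1 array, where leaving out control replicate 2 added S1pr3. Of the other pathway genes, median scaling gave 5 higher and 31 lower at 24 h, in place of 12 and 20, and 5 higher and 23 lower from 3 h to 24 h, in place of 11 and 11. Such scaling lowered the median of all genes itself.

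With median scaling the sign turned for S1pr1 at 3 h (-0.050), S1pr3 (-0.32), S1pr4 (-0.36), Plpp1 (Ppap2a, -0.26) and Ugcg (-0.084) at 24 h, Sptlc2 (-0.095) and Cerk (-0.14) at 3 h, and Ormdl1 (-0.25) and Ormdl2 (-0.087) from 3 h to 24 h. With quantile normalization it turned for Cerk at 3 h (-0.043), S1pr3 (-0.19) and S1pr4 (-0.31) at 24 h, and Sphk2 (0.055) and Asah1 (0.061) from 3 h to 24 h. With normexp and quantile normalization these were -0.043, -0.081, -0.13, 0.077 and 0.0054, and with the authors' value table -0.049, -0.19, -0.31, 0.051 and 0.059. With the mean over probes Sptlc2 was -0.010 at 3 h. Without 1 array, the 24 h difference ranged from -0.032 (without control replicate 1) to 0.59 for S1pr3 and from -0.0051 (without control replicate 1) to 0.31 for S1pr4. The difference from 3 h to 24 h ranged from -0.17 to 0.032 (without Ph3h replicate 1) for Sphk2, from -0.069 to 0.017 (without Ph24h replicate 1) for Gna11 and from -0.025 (without Ph24h replicate 2; below 0 also without Ph3h replicate 3) to 0.029 for Ormdl1. Except for S1pr1, Plpp1 and Ugcg, none of these had been called in the fit reported. Some were called after the turn. S1pr4 at 24 h was called lower with quantile normalization (adjusted p = 0.0421), median scaling (adjusted p = 0.028) and the authors' value table (adjusted p = 0.0411). Without control replicate 3 it was called higher (0.31, adjusted p = 0.0338). Plpp1 at 24 h was called lower with median scaling (adjusted p = 0.0442). The cause was not tested.

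Same-numbered arrays of different groups did not deviate together (correlations of -0.06 to 0.04 over 9 pairs, and -0.04 to 0.04 over the 18 other pairs). With the replicate block, S1pr1 at 3 h (0.19, adjusted p = 0.0624) and Sgpl1 from 3 h to 24 h (-0.22, adjusted p = 0.0647) were no longer called, and no other call of the 7 genes changed. Slide 2 held 1 array per group and gave values with no test.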
